A study of Mus musculus with 9 samples.

Results

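The 42 genes described here encode the glutathione, thioredoxin and antioxidant proteins of mouse neural stem cells (NSCs). They were chosen by symbol, as members of these systems, but with earlier results of these data known. All 42 were found by Ensembl identifier among the 55704 genes of the deposited table. By role they comprised 14 glutathione transferases, 5 glutathione peroxidases, 7 peroxiredoxins and sulfiredoxin genes, 4 genes of the thioredoxin system, 4 genes of glutathione synthesis and reduction, 4 superoxide dismutase and catalase genes, and a group of 4 made up of Nfe2l2, Keap1, Nqo1 and Hmox1.

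The cells came from the subventricular zone of adult C57BL/6 mice aged 8 to 9 weeks, with 2 female and 2 male mice pooled for an isolation, and had been passaged in medium with bFGF and EGF. Bulk RNA-seq was performed on 9 libraries, 3 per group: bFGF/EGF-treated NSCs at day 0, bFGF/BMP4-treated NSCs at day 6 (EGF replaced by BMP4) and BMP4-treated NSCs at day 6 (both factors replaced by BMP4), with each factor at 20 ng/mL. Every medium was DMEM/F12 with a B27 supplement, given as B27 minus vitamin A for the bFGF/EGF medium and only as B27 for the day 6 media, and the day 6 groups were grown on poly-L-ornithine and laminin. The day 0 cells in bFGF/EGF served as control for either day 6 group. The factors, the time in culture and any difference of supplement or coating therefore cannot be told apart in those comparisons. Nothing in the labels ties replicates to separate isolations, so p-values measure the spread between these libraries, which may be technical.

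Glutathione is a tripeptide that glutamate-cysteine ligase (Gclc, Gclm) and glutathione synthetase (Gss) build from glutamate, cysteine and glycine. Glutathione peroxidases spend it to reduce peroxides, glutathione transferases attach it to reactive compounds, and glutathione reductase (Gsr) recycles the oxidized form with NADPH. The thioredoxin system runs in parallel: thioredoxin reductase (Txnrd1 in the cytosol, Txnrd2 in mitochondria) keeps thioredoxin reduced, and thioredoxin in turn recycles peroxiredoxins. Nrf2, the product of Nfe2l2, is a transcription factor held back by Keap1, and it drives many of these genes through a short promoter motif, the antioxidant response element. In the adult brain, astrocytes are known as major makers of glutathione, and quiescent stem cells are known to differ from proliferating ones in their redox metabolism.

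The levels are FPKM, fragment numbers scaled by gene length and by library depth, so genes can be compared per length. Depth was 15892854 to 17419822 fragments on genes per library, as rebuilt from the FPKM values. Differences were tested with limma on log2(FPKM + 0.1) over 20207 genes, and a gene was called at a Benjamini-Hochberg adjusted p of at most 0.05. Fold changes are on this log2(FPKM + 0.1) scale, which understates changes of low genes, and they are followed by a standard error (SE). Of the 42 genes 41 were tested. Gstt2, a theta-class glutathione transferase, had at most 4 fragments in any library and was not tested.

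The NSC label was checked against markers. Sox2 lay between 121 and 202 FPKM in all 9 libraries, and Nes, which encodes Nestin, was at 145 to 157 FPKM in bFGF/EGF-treated NSCs, 2.96 to 3.94 in bFGF/BMP4-treated NSCs and 10.7 to 20.7 in BMP4-treated NSCs. All 8 NSC markers summed to 1034 to 1181 FPKM, 535 to 620 and 781 to 988 in the same order. Sox9, Msi1, Hopx and Prom1 had their highest mean in BMP4 (80.3, 35.0, 35.0 and 2.49 FPKM, against 41.6, 11.9, 4.51 and 0.660 in bFGF/EGF), Slc1a3 in bFGF/BMP4 (130 FPKM) and Fabp7 in bFGF/EGF (655 FPKM). The 6 astrocyte markers summed to 129 to 176 FPKM, 492 to 526 and 3234 to 4096 in the same order. Gfap went from 0.0600 to 0.134 FPKM, through 16.8 to 21.5, to 2181 to 3038, and Aqp4 from a mean of 0.527 FPKM through 212 to 778, and these genes carried most of the sum in BMP4. Gja1 had the same order (2.03, 24.5 and 78.0 FPKM), S100b and Slc1a2 were highest in bFGF/BMP4 (55.1 and 175 FPKM, against 40.1 and 65.5 in BMP4), and Aldh1l1 was highest in bFGF/EGF (135, 24.2 and 58.1 FPKM). The study's paper states that quiescent NSCs express GFAP too. From reference cell profiles and marker sets, it identified the cells of both BMP4 media as quiescent NSCs and not astrocytes. The part of astrocyte-like expression in the results below was not tested. The 5 ependymal and choroid markers summed to 6.13 to 10.8, 9.80 to 10.9 and 56.4 to 66.8 FPKM. Foxj1 made up most of each sum (means of 8.26, 10.0 and 55.1 FPKM), and Folr1 had a mean of 4.52 FPKM in BMP4. Ttr and Kl were under 1 FPKM in every library, and Tmem212 was at 0 throughout. The 6 neuronal markers summed to 75.7 to 91.8, 47.6 to 53.3 and 142 to 213 FPKM. The higher neuronal sum in BMP4 was mainly Tubb3 (means of 20.3 FPKM in bFGF/EGF and 145 in BMP4). Snap25 (2.60 and 4.38) and Dcx (0.187 and 0.904) also had higher means in BMP4, and Dcx reached 1.99 in BMP4 replicate 1. Map2 (56.2 and 34.1), Syt1 (3.83 and 0.371) and Rbfox3 (0.989 and 0.522) had lower means in BMP4. The 7 oligodendrocyte lineage markers summed to at most 30.7 FPKM, and the endothelial (5 genes), mural (6), microglial (6) and erythroid (5) lists to at most 4.18, 2.03, 0.876 and 0.331, with all 6 microglial and all 5 erythroid markers under 1 FPKM in every library. In bulk samples, fewer cells of a type and less RNA per cell cannot be told apart.

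BMP4 replicate 2 stood apart from the other libraries. Its FPKM values summed to 326302, against 278175 and 278433 in BMP4 replicates 1 and 3, and it was the highest BMP4 library for 37 of the 41 genes (90.2%) but for 40.1% of all genes tested. Among the bFGF/EGF libraries, replicate 2 was the highest for 29 of 41 (70.7%, against 38.5% of all genes tested). The counts of calls are therefore also given without BMP4 replicate 2.

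Some of the promoters hold the core of the antioxidant response element, TGACNNNGC, and they are shown here because Nrf2 acts through such sites. RefSeq promoters (GRCm38.p6, 250 bases before to 50 after the start) were matched for 35 of the 42 genes. The core was found on either strand in 9 of 46 promoters of these genes (19.6%) and in 4071 of 32851 promoters in all (12.4%). Matched genes outside the 9 below, Nqo1 among them, had no core in this window, and sites further from the start were not searched. The 9 stretches below read 5′ to 3′ in the direction of the gene, and the capitals mark the core, or its reverse complement where they begin with GC. Promoters of Gsta4, Gstt2, Prdx6, Gclc, Gsr, Sod3 and Hmox1 were not analysed here.
Gclm, chr3:122245403-122245451, plus strand: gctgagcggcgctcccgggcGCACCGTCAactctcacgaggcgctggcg
Mgst1, chr6:138140451-138140499, plus strand: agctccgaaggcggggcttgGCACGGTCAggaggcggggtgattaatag
Nfe2l2, chr2:75704875-75704913, minus strand: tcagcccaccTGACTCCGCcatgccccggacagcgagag
Prdx1, chr4:116685446-116685494, plus strand: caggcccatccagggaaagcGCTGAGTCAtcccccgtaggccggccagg
Srxn1, chr2:152105532-152105573, plus strand: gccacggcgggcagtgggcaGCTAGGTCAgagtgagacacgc
Txnrd1, chr10:82859094-82859142, plus strand: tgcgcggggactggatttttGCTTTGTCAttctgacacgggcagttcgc
Gstm5, chr3:107895792-107895840, plus strand: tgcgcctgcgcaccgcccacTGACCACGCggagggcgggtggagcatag
Gstm7, chr3:107931715-107931763, minus strand: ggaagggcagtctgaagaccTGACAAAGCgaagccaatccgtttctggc
Sod1, chr16:90220686-90220734, plus strand: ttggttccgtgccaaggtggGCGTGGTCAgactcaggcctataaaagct

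The AP-1 motif TGANTCA, which can overlap the core, was in 4 of the 46 promoters (8.7%, against 7.81% of all promoters), and the overlap occurred in Prdx1 alone among these 9. A match is a description of letters and not of binding. The 9 genes did not share a pattern: as given below, Gclm, Mgst1, Nfe2l2 and Prdx1 rose in both BMP4 media, Srxn1 rose in BMP4 alone, Txnrd1 fell in both media, Gstm7 was lower in BMP4 alone, and Gstm5 and Sod1 were not called.

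Over all 41 genes tested, 18 were higher and 10 lower in bFGF/BMP4-treated than in bFGF/EGF-treated NSCs. The 18 include Gstm2 and Gstm6, which passed the filter on mean FPKM only through the BMP4 media and so could not be called lower here. The shares of all genes tested that were called were 25.0% higher and 23.6% lower, so the higher share (43.9%) lay above the background and the lower share (24.4%) near it. With a fold change of at least 2 as well, 13 were higher and 6 lower, against 16.5% and 14.1% of all genes. The median log2 fold change was 0.35, and 0.06 over all genes tested. Without BMP4 replicate 2 the calls were 20 higher and 10 lower. That library is in neither group here, and it enters the fit through the shared estimate of spread and the choice of genes tested.

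In BMP4-treated against bFGF/EGF-treated NSCs, 24 of 41 were higher and 12 lower, with a background of 29.6% higher and 25.3% lower. Gstm2 and Gstm6 are among the 24, with the same limit. With a fold change of at least 2, the counts were 19 and 6, against 21.3% and 15.4% of all genes. The median log2 fold change was 0.66 against 0.10 over all genes. Without BMP4 replicate 2 the calls were 23 higher and 13 lower.

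Between the BMP4-treated and bFGF/BMP4-treated NSCs, 13 were higher and 4 lower in BMP4 alone, with a background of 12.2% higher and 8.89% lower. With a fold change of at least 2, the counts were 7 and 3, against 8.41% and 5.14%. The median log2 fold change was 0.18 against 0.00 over all genes, and without BMP4 replicate 2 the calls were 11 higher and 4 lower. The first pair of comparisons share their control libraries.

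Summed over the 42 genes, the level was 1543 to 1891 FPKM in bFGF/EGF-treated NSCs, 2057 to 2290 in bFGF/BMP4-treated NSCs and 2903, 4143 and 2925 in BMP4 replicates 1, 2 and 3. The make-up of that sum turned over between groups. Txn1 alone was 32.5% of it in bFGF/EGF-treated NSCs, where Prdx1 came next with 7.67%. Gstm1 led in bFGF/BMP4-treated NSCs with 18.2%, and Prdx6 led in BMP4-treated NSCs with 28.1%, where Txn1 was 3.22%.

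**Figure D1:**
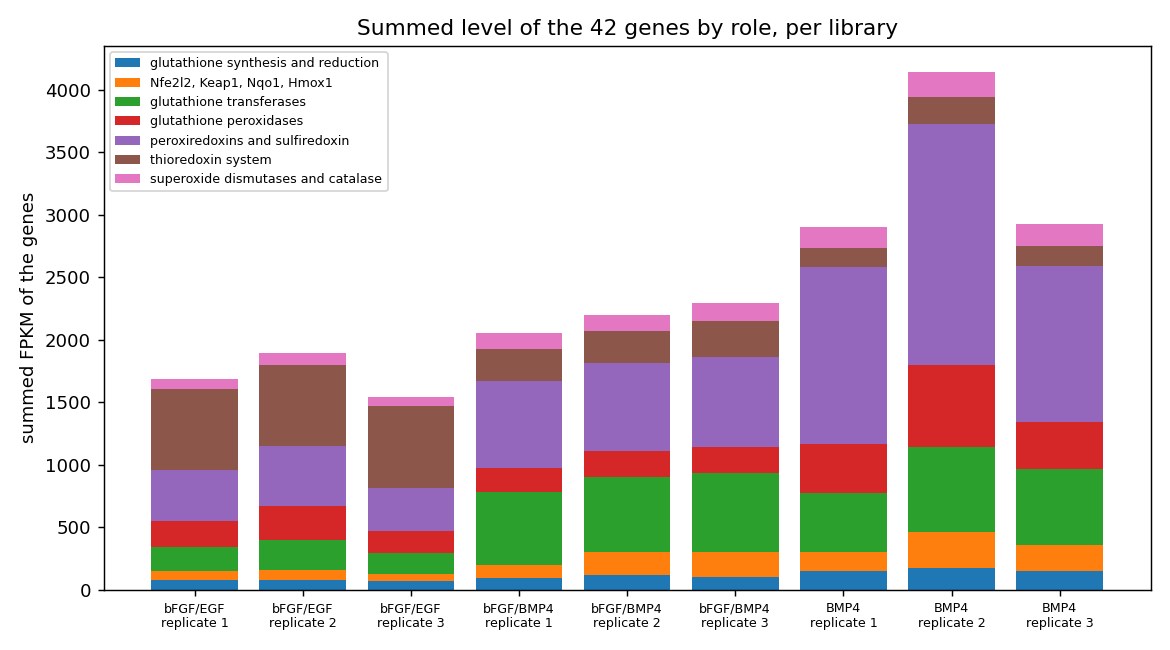
Summed FPKM of the 42 genes in each of the 9 libraries (bars, linear axis from 0), split by role. The thioredoxin system was 646 to 649 FPKM in bFGF/EGF-treated NSCs and 150 to 216 in BMP4-treated NSCs, while peroxiredoxins and sulfiredoxin went from 346 to 481 up to 1247 to 1925, with BMP4 replicate 2 the tallest bar.

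Of the 4 genes of glutathione synthesis and reduction, Gclc and Gclm were higher and Gsr was lower in both BMP4 media than in bFGF/EGF, and Gss was higher in BMP4. Of all genes tested, 25.0% were higher and 23.6% lower in bFGF/BMP4, and 29.6% and 25.3% in BMP4. Gclc, the catalytic subunit of glutamate-cysteine ligase, which sets the rate of glutathione synthesis, was at 23.2, 21.7 and 19.4 FPKM in bFGF/EGF replicates 1 to 3, at 44.9, 64.2 and 53.0 in bFGF/BMP4 and at 84.4, 99.0 and 85.2 in BMP4. The 3 groups did not overlap. Gclc rose 2.50-fold in bFGF/BMP4 (log2 fold change 1.32 ± 0.15 SE, adjusted p = 5.1e-05) and 4.17-fold in BMP4 (2.06 ± 0.15, adjusted p = 2.1e-06), and it was 1.67-fold higher in BMP4 than in bFGF/BMP4 (adjusted p = 0.0049).

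Gclm, the modifier subunit that eases feedback inhibition of the ligase, followed the same order, with 15.3, 13.5 and 13.0 FPKM in bFGF/EGF, 35.0, 44.4 and 41.0 in bFGF/BMP4, and 54.0, 65.5 and 52.5 in BMP4. It rose 2.86-fold in bFGF/BMP4 (log2 fold change 1.52 ± 0.13 SE, adjusted p = 1.2e-05) and 4.09-fold in BMP4 (2.03 ± 0.13, adjusted p = 1.2e-06). The further step between the BMP4 media (0.51 ± 0.13, adjusted p = 0.02) was lost without BMP4 replicate 2 (0.41) and without bFGF/BMP4 replicate 1 (0.42) or 3 (0.53).

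Gss, which adds glycine in the last step of synthesis, changed less: 3.25 to 4.02 FPKM in bFGF/EGF, 4.33 to 4.90 in bFGF/BMP4 and 5.63 to 6.28 in BMP4. It was called in BMP4 against bFGF/EGF alone (1.58-fold, log2 fold change 0.66 ± 0.13 SE, adjusted p = 0.0019). Its exons overlap 1511 bases of Acss2 on the other strand, which reached 21.8 FPKM. The strand setting of the counting is not given in the sources used here, so reads of such a pair may not be told apart.

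Gsr, which regenerates reduced glutathione, went the other way. It was at 36.6, 39.3 and 30.1 FPKM in bFGF/EGF, at 6.62, 7.22 and 7.08 in bFGF/BMP4 and at 5.19, 5.87 and 5.77 in BMP4. Every bFGF/EGF library was above every other library. Gsr was 4.98-fold lower in bFGF/BMP4 (log2 fold change -2.32 ± 0.12 SE, adjusted p = 5.3e-07) and 6.18-fold lower in BMP4 (-2.63 ± 0.12, adjusted p = 1.8e-07). The difference between the BMP4 media, -0.31 ± 0.12, did not pass (adjusted p = 0.11) but was called on the TPM scale (-0.38) and with quantile normalization (-0.32).

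**Figure D2:**
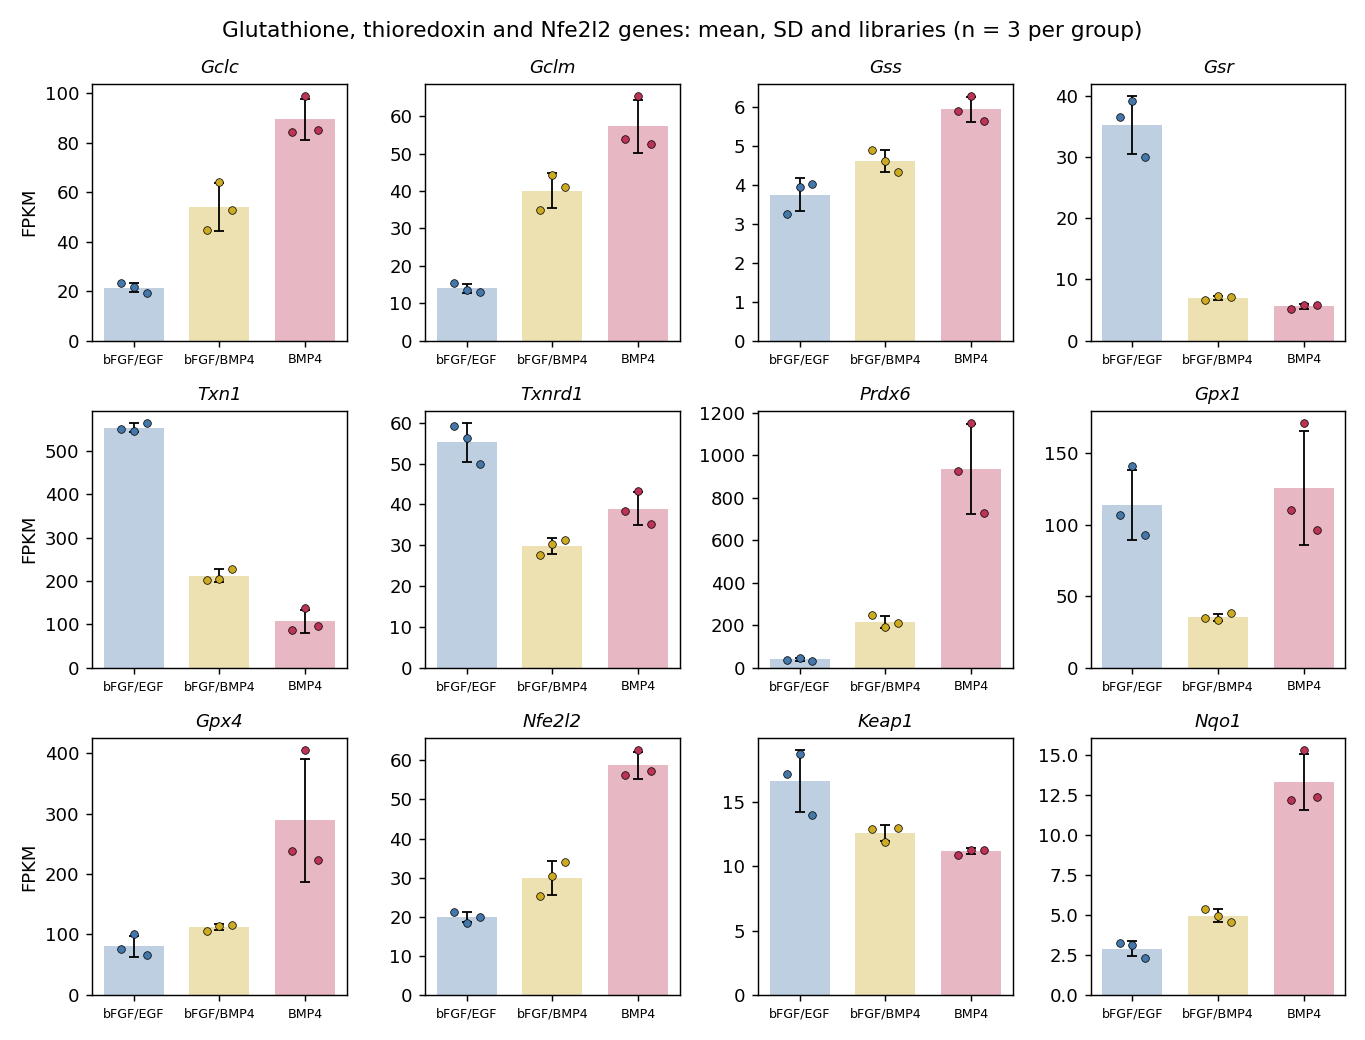
FPKM (linear axes from 0) of 12 genes; bars are group means, error bars are SD and points are the 3 libraries of a group in replicate order. Gclc, Gclm, Prdx6, Nfe2l2 and Nqo1 step up from bFGF/EGF through bFGF/BMP4 to BMP4, Gsr and Txn1 are lower in both BMP4 media than in bFGF/EGF, and Gpx1 is lowest in bFGF/BMP4.

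Nfe2l2 and its inhibitor Keap1 diverged at the RNA level, and the activity of the Nrf2 protein was not measured. Nfe2l2 was at 21.2, 18.5 and 19.9 FPKM in bFGF/EGF, 25.2, 30.3 and 33.9 in bFGF/BMP4 and 56.3, 62.6 and 57.2 in BMP4, with no overlap of the groups. It rose 1.49-fold in bFGF/BMP4 (log2 fold change 0.57 ± 0.13 SE, adjusted p = 0.0038) and 2.95-fold in BMP4 (1.56 ± 0.13, adjusted p = 4.7e-06), and was 1.98-fold higher in BMP4 than in bFGF/BMP4 (adjusted p = 0.00039). Keap1, the adaptor through which the Nrf2 protein is degraded, fell by 0.39 ± 0.12 and by 0.56 ± 0.12 on the log2 scale in bFGF/BMP4 and BMP4 (adjusted p = 0.024 and 0.003), from 14.0 to 18.7 FPKM to 11.9 to 13.0 and 10.9 to 11.3. Its call in bFGF/BMP4 was lost without bFGF/EGF replicate 1 or 2 or bFGF/BMP4 replicate 2.

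Nqo1 encodes a quinone reductase. Its levels were 3.22, 3.14 and 2.33 FPKM in bFGF/EGF, 5.37, 4.91 and 4.55 in bFGF/BMP4 and 12.2, 15.3 and 12.4 in BMP4. It rose 1.70-fold in bFGF/BMP4 (log2 fold change 0.76 ± 0.16 SE, adjusted p = 0.0028) and 4.49-fold in BMP4 (2.17 ± 0.16, adjusted p = 2.5e-06), and the step between the BMP4 media was 2.65-fold (adjusted p = 0.00018).

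Hmox1, the inducible heme oxygenase, was noisier. It was at 26.6, 40.8 and 26.2 FPKM in bFGF/EGF, 63.2, 137 and 143 in bFGF/BMP4 and 72.0, 196 and 128 in BMP4. The bFGF/EGF libraries lay below all others, and the BMP4 media overlapped. Hmox1 rose 3.51-fold in bFGF/BMP4 (log2 fold change 1.81 ± 0.40 SE, adjusted p = 0.0037) and 3.98-fold in BMP4 (1.99 ± 0.40, adjusted p = 0.0018), with 0.18 ± 0.40 between the media (adjusted p = 0.81).

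The glutathione transferases split by gene. In both bFGF/BMP4 and BMP4, 7 of the 13 tested were higher than in bFGF/EGF, and 3 and 4 were lower. The higher share was 53.8% in each, against 25.0% and 29.6% of all genes, and the lower shares, 23.1% and 30.8%, lay near the 23.6% and 25.3% of all genes. The 7 include Gstm2 and Gstm6, at means of 0 and 0.0902 FPKM in bFGF/EGF. Both passed the filter of a mean of 0.1 FPKM only through the BMP4 media. Against bFGF/EGF they could therefore be called higher but not lower. The medians of the 13 tested were 1.76 and 1.52 on the log2 scale. Between the BMP4 media, 2 were higher and 2 lower in BMP4 (15.4% each, against 12.2% and 8.89% of all genes), and the median was -0.15.

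Gsta4, which conjugates 4-hydroxynonenal, a product of lipid peroxidation, was at 3.53, 3.05 and 2.32 FPKM in bFGF/EGF, 48.5, 58.2 and 49.0 in bFGF/BMP4 and 32.3, 59.9 and 38.8 in BMP4. It rose 17.1-fold in bFGF/BMP4 (log2 fold change 4.10 ± 0.23 SE, adjusted p = 5.8e-07) and 14.0-fold in BMP4 (3.80 ± 0.23, adjusted p = 6.8e-07), and the BMP4 media overlapped (-0.29 ± 0.23, adjusted p = 0.42).

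Mgst1, a membrane-bound transferase with peroxidase activity, separated all 3 groups. It was at 2.13, 2.20 and 1.66 FPKM in bFGF/EGF, 10.3, 9.58 and 8.65 in bFGF/BMP4 and 30.5, 46.3 and 32.3 in BMP4. Its rise was 4.60-fold in bFGF/BMP4 (log2 fold change 2.20 ± 0.18 SE, adjusted p = 7e-06) and 17.2-fold in BMP4 (4.10 ± 0.18, adjusted p = 1.1e-07), with 3.74-fold between the BMP4 media (adjusted p = 5.6e-05).

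Mgst3, of the same membrane family, rose 4.41-fold in bFGF/BMP4 and 3.97-fold in BMP4 (log2 fold changes 2.14 ± 0.20 and 1.99 ± 0.20 SE, adjusted p = 1.8e-05 and 2e-05), from 6.54, 8.65 and 6.55 FPKM to 39.8, 28.9 and 28.4 and to 23.9, 37.4 and 26.7. Gstk1, a mitochondrial and peroxisomal enzyme, rose 3.38-fold and 3.73-fold (1.76 ± 0.23 and 1.90 ± 0.23, adjusted p = 0.00015 and 6.9e-05), from 1.76, 2.28 and 1.62 FPKM to 5.30, 7.23 and 7.36 and to 5.91, 10.1 and 6.36. For both genes the BMP4 media overlapped and did not differ past the threshold (adjusted p = 0.66 and 0.74).

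The lower transferases were Gstt1, Gstp1 and, in single media, Gsto1, Gstm4 and Gstm7. Gstt1, of the theta class, was at 4.31, 5.59 and 3.85 FPKM in bFGF/EGF, 1.14, 1.96 and 1.69 in bFGF/BMP4 and 1.65, 2.51 and 1.55 in BMP4. It was 2.79-fold and 2.36-fold lower (log2 fold change -1.48 ± 0.26 SE, adjusted p = 0.0009, and -1.24 ± 0.26, adjusted p = 0.0022). Gstp1, the pi-class enzyme, went from 43.9 to 70.1 FPKM in bFGF/EGF to 33.9 to 45.4 and 30.7 to 39.8, a difference of -0.52 ± 0.19 and -0.68 ± 0.19 on the log2 scale (adjusted p = 0.046 and 0.012). Its call in bFGF/BMP4 was lost without any of 6 libraries, with no filter on low values and in the fit of only the groups compared, and 23.8% of its 100-base runs also occur elsewhere in the transcripts, mainly in Gstp2.

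Gsto1, an omega-class enzyme that also reduces dehydroascorbate, was lowest in bFGF/BMP4. It was at 22.7, 29.6 and 22.4 FPKM in bFGF/EGF, 11.7, 11.6 and 11.8 in bFGF/BMP4 and 16.4, 26.7 and 16.1 in BMP4. It fell 2.10-fold in bFGF/BMP4 (log2 fold change -1.07 ± 0.19 SE, adjusted p = 0.0012) and was 1.63-fold higher in BMP4 than there (0.71 ± 0.19, adjusted p = 0.027), the latter call being lost without any 1 of the bFGF/BMP4 libraries and in the fit of only the groups compared. Its difference between BMP4 and bFGF/EGF, -0.36 ± 0.19 (adjusted p = 0.14), passed without BMP4 replicate 2 (-0.60), on the TPM scale (-0.45) and with limma-voom (-0.46).

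The 6 mu-class genes lie in a cluster of 149.1 kb on chromosome 3, between 107803137 and 107952210 (GRCm39), in the order Gstm5, Gstm7, Gstm6, Gstm2, Gstm1 and Gstm4, and these neighbours did not share a pattern. Gstm1 was by far the most abundant in the BMP4 media, with 372, 395 and 423 FPKM in bFGF/BMP4 and 295, 400 and 413 in BMP4, against 37.3, 49.8 and 37.3 in bFGF/EGF. It rose 9.62-fold and 8.87-fold (log2 fold change 3.27 ± 0.17 SE, adjusted p = 4.8e-07, and 3.15 ± 0.17, adjusted p = 4.3e-07), and the BMP4 media differed by -0.12 ± 0.17 (adjusted p = 0.7). Gstm5 began at a like level, 38.6 to 54.9 FPKM in bFGF/EGF, and was not called in any comparison, with log2 fold changes of -0.45 to -0.16. In BMP4 against bFGF/EGF it passed without BMP4 replicate 2 (-0.66) or bFGF/EGF replicate 3 (-0.61), on the TPM scale (-0.54) and with limma-voom (-0.55).

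Gstm6 was nearly silent in bFGF/EGF, with 2 to 4 fragments a library (0.118, 0.0954 and 0.0569 FPKM), and was highest in bFGF/BMP4 (1.16, 1.80 and 1.64 FPKM) rather than in BMP4 (0.403, 0.528 and 0.396). It was called in all 3 comparisons, with log2 fold changes of 3.09 ± 0.29 SE in bFGF/BMP4 (adjusted p = 1.6e-05), 1.52 ± 0.29 in BMP4 (adjusted p = 0.0013) and -1.58 ± 0.29 between the media (adjusted p = 0.003). With a pseudocount of 1 these were 1.21, 0.40 and -0.81. Gstm2 had no fragment in any bFGF/EGF library. It had 0.853, 0.272 and 0.567 FPKM in bFGF/BMP4 (7 to 23 fragments) and 0.550, 0.552 and 0.686 in BMP4, at least 5.30-fold and 5.60-fold higher against a floor of 3 fragments a library (adjusted p = 0.00029 and 0.00015).

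Gstm7 was at 8.89, 11.1 and 8.38 FPKM in bFGF/EGF, 11.4, 12.7 and 12.9 in bFGF/BMP4 and 5.04, 8.18 and 7.20 in BMP4. It was lower in BMP4 than in bFGF/BMP4 (log2 fold change -0.87 ± 0.18 SE, adjusted p = 0.0069), and its difference from bFGF/EGF (-0.49 ± 0.18, adjusted p = 0.045) was lost without any of 7 libraries, with no filter on low values and in the fit of only the groups compared. Gstm4 was low everywhere, with 0.861, 1.44 and 0.763 FPKM in bFGF/EGF, 0.438, 0.649 and 0.478 in bFGF/BMP4 and 0.289, 0.289 and 0.675 in BMP4. It was 2.22-fold lower in BMP4 (-1.15 ± 0.36, adjusted p = 0.02), a call lost without bFGF/EGF replicate 2 (-0.90), BMP4 replicate 1 (-0.98) or BMP4 replicate 2 (-0.98).

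**Figure D3:**
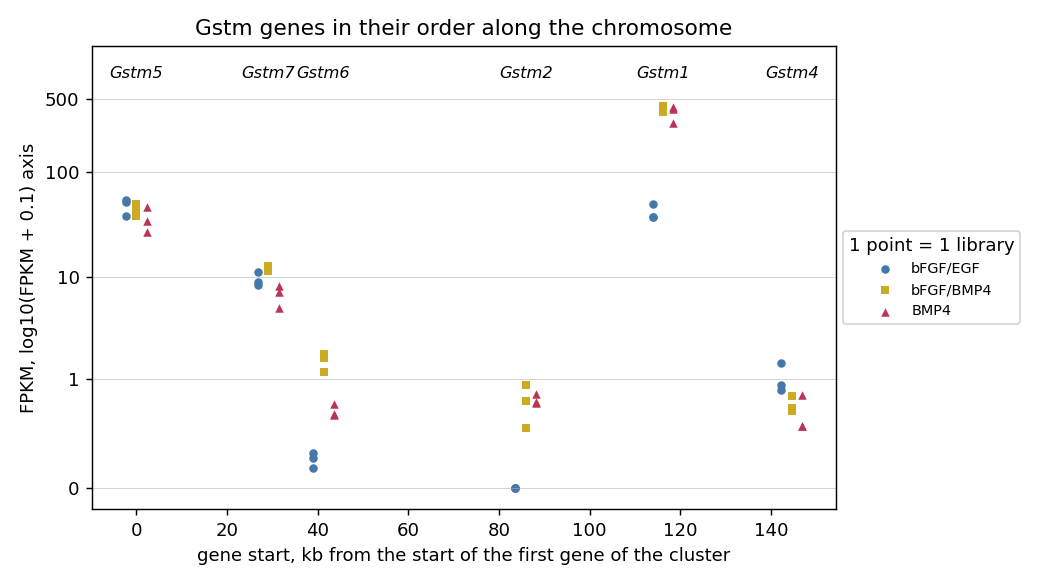
FPKM of the 6 Gstm genes in each library (points, log10(FPKM + 0.1) axis), placed by the distance in kb of their start from the start of the first gene, with the groups set side by side. Gstm1 lies at 295 to 423 FPKM in both BMP4 media and at 37.3 to 49.8 in bFGF/EGF, while the 3 groups overlap for Gstm5, 116.2 kb away.

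Of the 5 glutathione peroxidases, 1 was higher and 2 lower in bFGF/BMP4 than in bFGF/EGF, and 2 were higher and 2 lower in BMP4. Of all genes, 25.0% were higher and 23.6% lower in bFGF/BMP4, and 29.6% and 25.3% in BMP4. Among them Gpx1, Gpx3 and Gpx4 are selenoproteins, as are Txnrd1 and Txnrd2 of the thioredoxin system: selenocysteine is read from an in-frame TGA codon that would otherwise stop translation. The codons marked in GENCODE (GRCm39, plus strand) are shown in capitals in their surroundings because they set these 5 genes apart from Gpx7 and Gpx8, which use cysteine. In both reductases 1 codon lies between the TGA and the stop, whereas 124 to 154 codons follow it in the peroxidases.
Gpx1, codon at chr9:108216650-108216652: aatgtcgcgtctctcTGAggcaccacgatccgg
Gpx3, codon at chr11:54798082-54798084: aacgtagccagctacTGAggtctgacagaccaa
Gpx4, codon at chr10:79890571-79890573: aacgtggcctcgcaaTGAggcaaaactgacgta
Txnrd1, codon at chr10:82731871-82731873: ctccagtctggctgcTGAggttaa
Txnrd2, codon at chr16:18296522-18296524: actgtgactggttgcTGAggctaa

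The selenocysteine-containing members did not move as a group. Gpx1, the cytosolic peroxidase, was at 107, 141 and 92.9 FPKM in bFGF/EGF, 34.6, 33.1 and 38.0 in bFGF/BMP4 and 110, 171 and 96.3 in BMP4. The bFGF/BMP4 libraries lay below all others, and BMP4 and bFGF/EGF overlapped. Gpx1 was 3.18-fold lower in bFGF/BMP4 than in bFGF/EGF (log2 fold change -1.67 ± 0.22 SE, adjusted p = 0.00016) and 3.46-fold higher in BMP4 than in bFGF/BMP4 (1.79 ± 0.22, adjusted p = 0.0003). Between BMP4 and bFGF/EGF it was 0.12 ± 0.22 (adjusted p = 0.66), and -0.12 without BMP4 replicate 2. GENCODE vM39 places Gm57050 over 1232 of its exon bases on the other strand, but Gm57050 has no FPKM in the deposited values.

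Gpx4, which reduces lipid hydroperoxides in membranes and is a main guard against ferroptosis, was at 76.5, 100 and 66.0 FPKM in bFGF/EGF, 106, 114 and 116 in bFGF/BMP4 and 238, 405 and 223 in BMP4. Every BMP4 library was above every other library. It rose 3.48-fold in BMP4 against bFGF/EGF (log2 fold change 1.80 ± 0.23 SE, adjusted p = 0.00011) and was 2.48-fold higher than in bFGF/BMP4 (1.31 ± 0.23, adjusted p = 0.0026). In bFGF/BMP4 the 0.49 ± 0.23 over bFGF/EGF did not pass (adjusted p = 0.11), but it did without BMP4 replicate 2, on the TPM scale and with quantile normalization. Of its 100-base runs, 32.1% occur in other transcripts, mainly of Gm63662 and the pseudogene Gpx4-ps2.

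Gpx3, the secreted peroxidase, was lowest in BMP4, with 10.7, 13.4 and 6.90 FPKM in bFGF/EGF, 7.59, 7.66 and 8.47 in bFGF/BMP4 and 2.48, 3.30 and 1.81 in BMP4. It was 3.94-fold lower than in bFGF/EGF (log2 fold change -1.98 ± 0.26 SE, adjusted p = 0.00012) and 3.13-fold lower than in bFGF/BMP4 (-1.64 ± 0.26, adjusted p = 0.0014). In GENCODE vM39 its exons overlap 2603 bases of Tnip1 on the other strand, which was at up to 5.55 FPKM. The FPKM values imply a counted length of 1813 bases for Gpx3, so the counted overlap was smaller.

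The endoplasmic reticulum peroxidases Gpx7 and Gpx8, which have a role in oxidative protein folding, went in opposite directions. Gpx8 was at 5.84, 9.05 and 6.43 FPKM in bFGF/EGF, 39.3, 47.1 and 44.9 in bFGF/BMP4 and 44.5, 79.0 and 54.5 in BMP4, a rise of 6.18-fold (log2 fold change 2.63 ± 0.22 SE, adjusted p = 9e-06) and 8.16-fold (3.03 ± 0.22, adjusted p = 2.4e-06). Gpx7 was at 5.29, 6.52 and 4.08 FPKM, then 1.83, 1.37 and 2.43, then 2.25, 2.44 and 1.51, a fall of 2.75-fold (-1.46 ± 0.26, adjusted p = 0.0012) and 2.50-fold (-1.32 ± 0.26, adjusted p = 0.0018). For neither gene did the BMP4 media differ past the threshold (adjusted p = 0.78 for Gpx7 and 0.25 for Gpx8).

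Of the 7 peroxiredoxin and sulfiredoxin genes, 3 were higher in bFGF/BMP4 than in bFGF/EGF, and 5 were higher and 1 lower in BMP4. The higher shares were 42.9% and 71.4%, against 25.0% and 29.6% of all genes. Prdx6 moved most. Prdx6 is the peroxiredoxin that takes its electrons from glutathione rather than thioredoxin, and it also acts on phospholipids. It was at 38.4, 47.5 and 33.6 FPKM in bFGF/EGF, 247, 192 and 208 in bFGF/BMP4 and 923, 1151 and 730 in BMP4. The 3 groups lay far apart. It rose 5.43-fold in bFGF/BMP4 (log2 fold change 2.44 ± 0.20 SE, adjusted p = 7.3e-06) and 23.2-fold in BMP4 (4.54 ± 0.20, adjusted p = 1.1e-07), and the step between the BMP4 media was 4.28-fold (2.10 ± 0.20, adjusted p = 6.1e-05). On the log2(FPKM + 0.1) scale 4.54 was the largest fold change of the 41 genes in the 3 comparisons, but limma-voom gave 4.45 for it and 5.01 for Gstm2, which had no fragment in bFGF/EGF. In BMP4-treated NSCs Prdx6 was the most abundant of the 42 genes per length.

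Srxn1, sulfiredoxin, repairs peroxiredoxins whose active cysteine has been overoxidized. It was at 10.9, 12.3 and 11.0 FPKM in bFGF/EGF, 12.6, 14.5 and 13.7 in bFGF/BMP4 and 33.4, 40.1 and 30.6 in BMP4. It rose in BMP4, 3.01-fold over bFGF/EGF (log2 fold change 1.59 ± 0.13 SE, adjusted p = 3.9e-06) and 2.53-fold over bFGF/BMP4 (1.34 ± 0.13, adjusted p = 5.6e-05). In bFGF/BMP4 its 0.25 ± 0.13 did not pass (adjusted p = 0.13).

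The other peroxiredoxins draw on thioredoxin, and their differences were smaller. Prdx5, found in mitochondria, peroxisomes and cytosol, went from 31.2, 37.6 and 26.8 FPKM to 66.8, 56.4 and 57.5 in bFGF/BMP4 and 60.5, 101 and 67.3 in BMP4 (log2 fold changes 0.92 ± 0.20 and 1.23 ± 0.20 SE, adjusted p = 0.0033 and 0.00046). Its exons overlap 732 bases of Trmt112 on the other strand, which reached 29.0 FPKM. Prdx1, the abundant cytosolic form, rose from 107 to 151 FPKM to 188 to 253 and 174 to 309 (0.80 ± 0.23 and 0.76 ± 0.23, adjusted p = 0.015 and 0.017), and both calls were lost without bFGF/EGF replicate 3 (0.67 and 0.63). The call in bFGF/BMP4 was also lost without bFGF/BMP4 replicate 2 (0.75) or 3 (0.72).

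Prdx3, the mitochondrial form, was called in BMP4 against bFGF/EGF alone (0.52 ± 0.16 on the log2 scale, adjusted p = 0.017), which was lost without bFGF/EGF replicate 1 (0.48) or 3 (0.45). Prdx4, of the endoplasmic reticulum, was lower there (-0.79 ± 0.23, adjusted p = 0.015), although the libraries of the groups overlapped, with 13.3 to 23.0 FPKM in bFGF/EGF and 8.16 to 13.8 in BMP4. This call was lost without bFGF/EGF replicate 1 (-0.63) or 2 (-0.72) or BMP4 replicate 1 (-0.61). Prdx2, at 101 to 208 FPKM throughout, was not called in any comparison, with log2 fold changes of -0.14 to 0.54. Its 0.54 in BMP4 over bFGF/BMP4 passed on the TPM scale (0.46), with quantile normalization (0.47), with limma-voom (0.56) and with the replicate number as a block, and its 0.40 over bFGF/EGF passed with quantile normalization (0.47) and without bFGF/EGF replicate 2 (0.53).

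Of the 4 genes of the thioredoxin system, Txn1, Txn2 and Txnrd1 were called lower in both BMP4 media, where 23.6% and 25.3% of all genes were. Txnrd2 was not called in bFGF/BMP4 (0.04 on the log2 scale) and was called higher in BMP4. Txn1, cytosolic thioredoxin, was the most abundant of the 42 genes in bFGF/EGF, with 552, 547 and 565 FPKM, and stood at 203, 205 and 229 in bFGF/BMP4 and 86.8, 138 and 95.4 in BMP4. It was 2.62-fold lower in bFGF/BMP4 (log2 fold change -1.39 ± 0.18 SE, adjusted p = 0.00013), 5.29-fold lower in BMP4 (-2.40 ± 0.18, adjusted p = 2.5e-06) and 2.02-fold lower in BMP4 than in bFGF/BMP4 (-1.02 ± 0.18, adjusted p = 0.0023). In bFGF/EGF-treated NSCs Txn1 was above Prdx6 in every library, and in BMP4-treated NSCs it was below Prdx6 in every library.

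Txnrd1, the cytosolic reductase, was at 59.3, 56.3 and 50.0 FPKM in bFGF/EGF, 27.6, 30.4 and 31.3 in bFGF/BMP4 and 38.3, 43.3 and 35.3 in BMP4, a fall of 1.85-fold (log2 fold change -0.89 ± 0.12 SE, adjusted p = 0.00017) and 1.42-fold (-0.50 ± 0.12, adjusted p = 0.0047). The higher level in BMP4 than in bFGF/BMP4, 0.38 ± 0.12, was just past the threshold (adjusted p = 0.043) and was lost without any of 6 libraries, with median-ratio scaling, with no filter on low values and with the replicate number as a block.

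The mitochondrial pair changed little. Txn2 fell by 0.48 ± 0.15 and 0.52 ± 0.15 on the log2 scale (adjusted p = 0.026 and 0.017), from 31.5 to 42.3 FPKM to 23.8 to 26.4 and 21.3 to 29.3, and both calls were lost without bFGF/EGF replicate 2 (-0.34 and -0.38). The first was also lost without bFGF/BMP4 replicate 1 (-0.47) or 2 (-0.45), and the second without BMP4 replicate 1 (-0.42) or 3 (-0.48). Txnrd2, at 2.65 to 4.59 FPKM throughout, was called higher in BMP4 than in bFGF/EGF (0.42 ± 0.16, adjusted p = 0.046), a call that was lost without any 1 of the 9 libraries, on the TPM scale and with median-ratio scaling, quantile normalization or limma-voom, with no filter on low values, with the replicate number as a block and in the fit of only the groups compared.

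Superoxide dismutases turn superoxide into hydrogen peroxide, and catalase breaks that down. Of these 4 genes, 2 were higher in bFGF/BMP4 than in bFGF/EGF and 3 in BMP4, where 25.0% and 29.6% of all genes were. Cat, a peroxisomal enzyme, was at 25.2, 27.5 and 23.7 FPKM in bFGF/EGF, 50.9, 52.0 and 62.8 in bFGF/BMP4 and 93.5, 94.8 and 99.1 in BMP4, with no overlap. It rose 2.16-fold in bFGF/BMP4 (log2 fold change 1.11 ± 0.12 SE, adjusted p = 3.5e-05) and 3.76-fold in BMP4 (1.91 ± 0.12, adjusted p = 7.6e-07), and the BMP4 media differed 1.74-fold (0.80 ± 0.12, adjusted p = 0.00078).

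Sod3, the secreted dismutase, was at 0.771, 1.23 and 0.757 FPKM in bFGF/EGF, 0.883, 1.24 and 0.855 in bFGF/BMP4 and 6.97, 7.61 and 5.47 in BMP4. The first pair of groups overlapped, and BMP4 lay above both. It was 6.73-fold above bFGF/EGF (log2 fold change 2.75 ± 0.24 SE, adjusted p = 7.4e-06) and 6.23-fold above bFGF/BMP4 (2.64 ± 0.24, adjusted p = 4.7e-05), with 0.11 ± 0.24 between the other pair (adjusted p = 0.74).

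Sod2, the mitochondrial manganese enzyme, rose from 15.1 to 18.4 FPKM to 22.3 to 23.4 in bFGF/BMP4 and 20.5 to 22.2 in BMP4 (log2 fold changes 0.49 ± 0.11 and 0.37 ± 0.11 SE, adjusted p = 0.0037 and 0.014). The call in BMP4 was lost without bFGF/EGF replicate 1 (0.32) and with limma-voom (0.28). Sod1, the cytosolic copper-zinc enzyme, at 36.3 to 76.4 FPKM, did not pass in any comparison, but its 0.45 ± 0.18 in BMP4 against bFGF/EGF (adjusted p = 0.055) passed under 6 alternatives, among them without BMP4 replicate 1 (0.57) or bFGF/EGF replicate 2 (0.54), and its 0.35 in bFGF/BMP4 (adjusted p = 0.13) passed under 4. In GENCODE vM39 its exons overlap 4217 bases of Scaf4 on the other strand. The FPKM values imply a counted length of 3971 bases for Sod1, so the counted overlap was smaller.

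**Figure D4:**
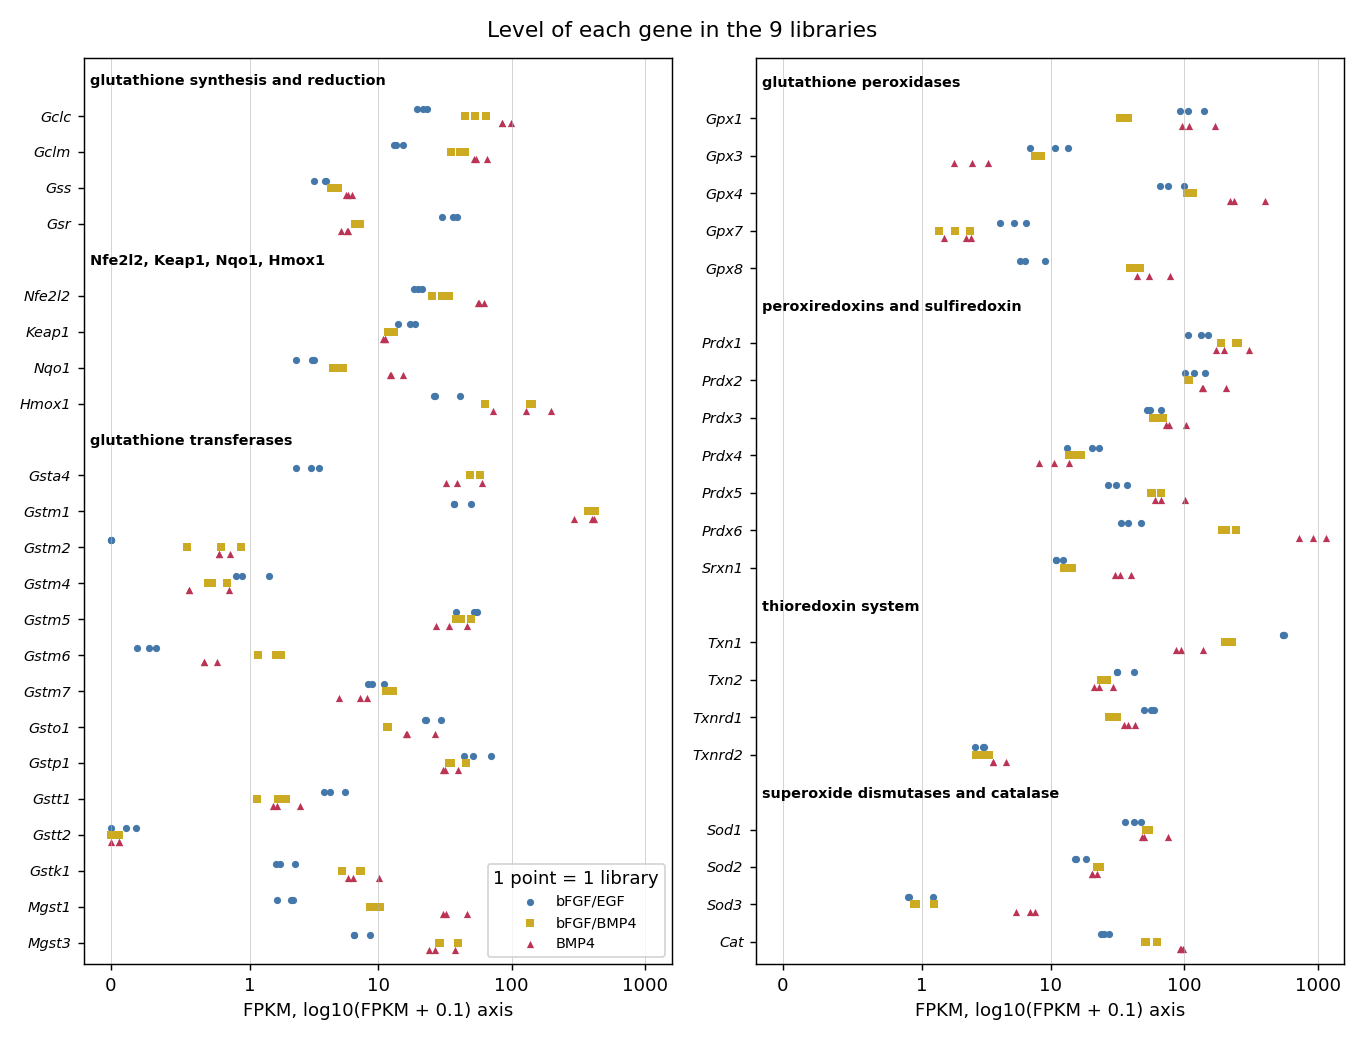
FPKM of the 42 genes in each of the 9 libraries (1 point each, log10(FPKM + 0.1) axis), by role. Prdx6 and Gsta4 move right from bFGF/EGF to the BMP4 media, Gsr and Txn1 move left, and Sod3 and Srxn1 stand apart in BMP4 alone.

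By the calls in the 3 comparisons, 7 genes rose at both steps, being higher in bFGF/BMP4 than in bFGF/EGF and higher again in BMP4: Cat, Gclc, Gclm, Mgst1, Nfe2l2, Nqo1 and Prdx6. Txn1 alone was lower at both. Another 10 (Gpx8, Gsta4, Gstk1, Gstm1, Gstm2, Hmox1, Mgst3, Prdx1, Prdx5 and Sod2) were higher in both BMP4 media with no call between the media, and 6 (Gpx7, Gsr, Gstp1, Gstt1, Keap1 and Txn2) were lower in both in the same way. Gpx4, Sod3 and Srxn1 were called higher in BMP4 against both other groups and not in bFGF/BMP4 against bFGF/EGF, and Gpx3 and Gstm7 were called lower in that way. Gpx1 and Gsto1 were lower in bFGF/BMP4 than in either other group.

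**Figure D5:**
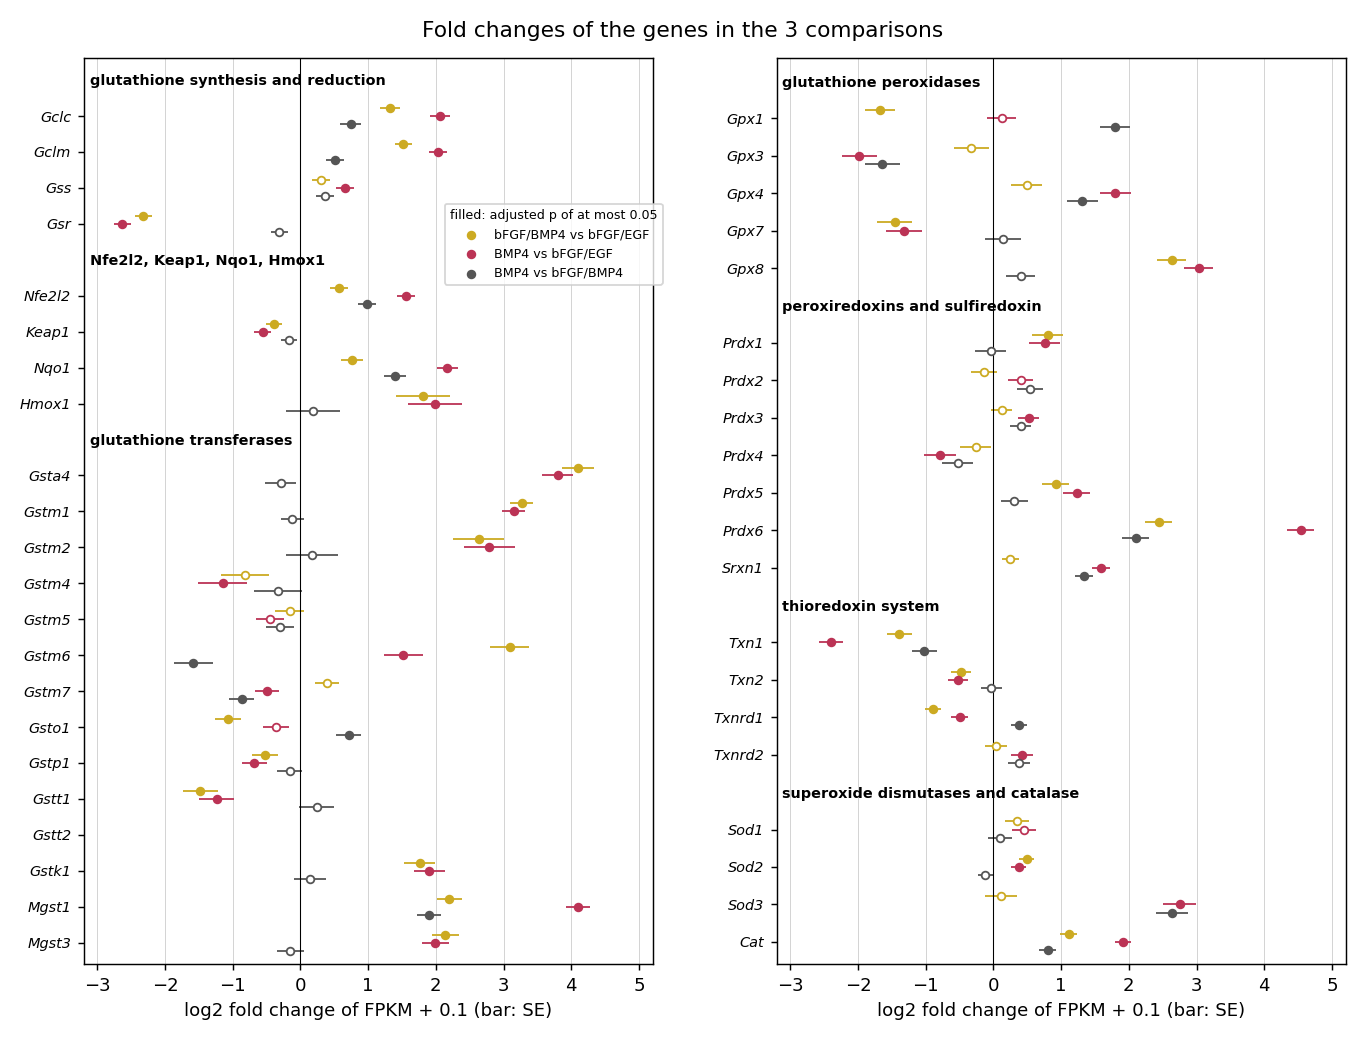
Log2 fold changes (FPKM + 0.1 scale) of the 41 tested genes in the 3 comparisons, with SE as bars; filled points have an adjusted p of at most 0.05. Prdx6 reaches 4.54 in BMP4 against bFGF/EGF, Gsr lies at -2.63 there, and Gpx1 lies at -1.67 in bFGF/BMP4 and at 0.12 in BMP4.

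Around these genes, 111 other genes of the same pathways were examined as 6 lists, of which 97 were tested. In bFGF/BMP4 33 were higher and 31 lower than in bFGF/EGF, in BMP4 40 and 27, and between the BMP4 media 21 and 4, with median log2 fold changes of -0.02, 0.27 and 0.16. These were shares of 34.0% higher and 32.0% lower, 41.2% and 27.8%, and 21.6% and 4.12%. Over all genes tested they were 25.0% and 23.6%, 29.6% and 25.3%, and 12.2% and 8.89%, which are also the background of each list below. Among 24 regulators and targets of Nrf2, 12 were higher and 6 lower in BMP4 than in bFGF/EGF (50.0% and 25.0%), the lower share being near that of all genes. Fth1, the ferritin heavy chain that stores iron, went from 182, 224 and 163 FPKM to 361, 398 and 408 and to 908, 1325 and 757 (log2 fold change 2.36 ± 0.22 SE in BMP4, adjusted p = 1.1e-05). Bach2, a repressor that competes for the same kind of site, was lower in both media (-2.28 ± 0.27 in bFGF/BMP4, adjusted p = 7.2e-05, and -2.27 ± 0.27 in BMP4, adjusted p = 5.4e-05). Besides Fth1, the genes of this list called higher in BMP4 were Sqstm1, Aldh3a2, Ephx1, Blvrb, Slc3a2, Abcc4, Mafk, Nqo2, Osgin1, Nfe2l1 and Mafg. The other genes of this list called lower in BMP4 were Slc7a11, Cbr3, Blvra, Bach1 and Abcc1. Slc7a11 fell from a mean of 1.86 to 0.175 FPKM (-2.73 ± 0.35, adjusted p = 9.7e-05) and Cbr3 from 25.2 to 5.43 (-2.24 ± 0.21, adjusted p = 1.1e-05).

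The 13 genes that supply NADPH, the reductant behind Gsr and the thioredoxin reductases, included 2 higher and 6 lower in bFGF/BMP4 than in bFGF/EGF, and 3 higher and 3 lower in BMP4. The shares in bFGF/BMP4 were 15.4% and 46.2%, and both shares in BMP4, 23.1%, were below those of all genes. Nadk2, the mitochondrial NAD kinase, rose from 9.36, 7.70 and 9.58 FPKM to 35.7, 36.3 and 30.3 and to 64.1, 92.9 and 68.8 (log2 fold changes 1.93 ± 0.16 and 3.06 ± 0.16 SE, adjusted p = 7.8e-06 and 3e-07). Idh2, the mitochondrial NADP-dependent isocitrate dehydrogenase, was higher in BMP4 than in bFGF/BMP4 (1.05 ± 0.15, adjusted p = 0.00089), with 26.0 to 30.6 FPKM in bFGF/BMP4 and 51.5 to 61.2 in BMP4, but below its 77.5 to 114 FPKM in bFGF/EGF in both (-1.81 ± 0.15, adjusted p = 9.7e-06, and -0.77 ± 0.15, adjusted p = 0.0019).

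Of the 20 genes of glutathione turnover and cysteine supply, 18 were tested, with 6 higher and 6 lower in bFGF/BMP4 (33.3% each) and 7 and 6 in BMP4 (38.9% and 33.3%). Oplah, the oxoprolinase that returns glutamate from broken-down glutathione, rose from 0.810 ± 0.10 FPKM (SD, n = 3) to 6.10 ± 1.8 and to 12.4 ± 0.56 (log2 fold changes 2.74 ± 0.19 and 3.78 ± 0.19 SE, adjusted p = 3.1e-06 and 3e-07). Chac1, which degrades glutathione inside the cell, fell from 8.37, 9.35 and 6.98 FPKM to 0.376, 0.566 and 0.556 in BMP4 (-3.80 ± 0.27, adjusted p = 2.3e-06). Cbs, the first enzyme from homocysteine towards cysteine, was highest in bFGF/BMP4: 4.31, 4.71 and 3.87 FPKM, then 18.3, 16.6 and 17.3, then 3.40, 2.80 and 2.15. It rose in bFGF/BMP4 (1.99 ± 0.17, adjusted p = 8.7e-06) and was lower in BMP4 than there (-2.62 ± 0.17, adjusted p = 7.3e-06).

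Of the 22 tested genes in the list of other peroxidases and redoxins, 9 were higher and 5 lower in bFGF/BMP4 (40.9% and 22.7%), and 11 and 7 in BMP4 (50.0% and 31.8%). Txnip, which binds and inhibits thioredoxin, was at 1.86, 0.891 and 0.163 FPKM in bFGF/EGF, 2.55, 1.54 and 3.07 in bFGF/BMP4 and 24.0, 23.0 and 17.7 in BMP4. It rose in BMP4 (log2 fold change 4.75 ± 0.59 SE, adjusted p = 8.4e-05) and was higher there than in bFGF/BMP4 (3.16 ± 0.59, adjusted p = 0.0037). Txnip was also called higher in bFGF/BMP4 than in bFGF/EGF (1.58 ± 0.59, adjusted p = 0.049), although these groups overlapped. Its bFGF/EGF libraries were spread widely. Pon2, a lactonase of membranes, rose alike in both media (2.84 ± 0.14, adjusted p = 3.9e-07, and 2.86 ± 0.14, adjusted p = 2.7e-07).

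The 12 genes of selenoprotein synthesis and supply had 4 higher and 5 lower in bFGF/BMP4 (33.3% and 41.7%), and 2 higher and 4 lower in BMP4 (16.7% and 33.3%). Selenop, the secreted selenium carrier, rose from 2.19, 4.25 and 2.89 FPKM to 75.1, 66.5 and 70.2 and to 47.0, 58.9 and 53.6 (log2 fold changes 4.51 ± 0.20 and 4.10 ± 0.20 SE, adjusted p = 1.9e-07 and 2.4e-07). Eefsec, the elongation factor that brings selenocysteine to the ribosome, was lower in both (-1.30 ± 0.16 and -1.37 ± 0.16, adjusted p = 9.1e-05 and 4.6e-05). Of the 17 other transferase genes 8 were tested, with 3 higher and 2 lower in bFGF/BMP4 (37.5% and 25.0%) and 5 and 1 in BMP4 (62.5% and 12.5%). Gdap1, a transferase-like protein of mitochondria, was at 1.95, 1.45 and 1.99 FPKM, then 0.717, 1.33 and 1.10, then 2.94, 3.47 and 2.98, and was higher in BMP4 than in bFGF/BMP4 (1.52 ± 0.24, adjusted p = 0.0012).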

How the data were processed

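RNA of 9 libraries in 3 groups of 3 was sequenced as paired-end reads. Per the labels, the authors cleaned reads with fastp 0.19.7, aligned them to mm39 with HISAT2 2.0.5 and counted them with featureCounts 1.5.0-p3. The authors deposited FPKM values for 55704 genes. The strand setting, the annotation release and the program that computed FPKM are not given in the sources used here.

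FPKM values were tested with limma 3.58.1 (R 4.3.3) with trend on log2(FPKM + 0.1). The fit held all 9 libraries and the 20207 genes whose FPKM averaged 0.1 or more, two-sided, with Benjamini-Hochberg adjustment over all genes tested. limma stood in for DESeq2, the authors' tool, because the values deposited in GEO are FPKM. The study also gives raw counts with its paper, which were not used here. Python 3.11.15 with pandas 2.3.3 and matplotlib 3.10.9 did the rest. Whole fragment numbers were rebuilt from the FPKM of 30860 expressed genes (15892854 to 17419822 per library). A group whose libraries each held 3 fragments or fewer was taken as not detected, which covers counting error only. Coordinates are from GENCODE vM39 (GRCm39), where 54749 of 55414 identifiers were found, and promoters are from RefSeq (GRCm38.p6). Exon overlaps are on GENCODE vM39, and the gene models that were counted may differ from it.

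Genes are given library by library where a fold change of at least 2 was called in any comparison. So are the most abundant of their role, and others are given by ranges. Of each pathway list, up to 2 called genes with the largest changes per comparison and a mean of at least 1 FPKM may be named. For the Nrf2 list, all genes called higher or lower in BMP4 against bFGF/EGF are named as well. The members and lists were chosen with earlier results of these data known. As alternatives, the pseudocount was raised to 1, the filter was dropped or raised to 1, and the fit was repeated with quantile normalization, with median-ratio scaling, in TPM, by limma-voom on rebuilt fragments, with a replicate block, on only the groups compared, with a 2-fold threshold, and without each library.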

Additional observations from a re-analysis of the deposited data

How the results depend on the processing

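Of the 81 called fold changes, 66 kept their call and direction under every alternative run, and none reversed. The call was lost without at least 1 library for 15, of which Gstm4 in BMP4 against bFGF/EGF was the only 1 with a fold change of at least 2, and 6 of the 15 also lost it under another alternative. Over all 123 fold changes, 2074 of 2205 alternative values kept direction and side of the threshold, 72 lost a call, 34 gained one and 25 changed sign, none of them called. Requiring a fold change of at least 2 lowered the counts, by construction, to 6 lower in bFGF/BMP4 against bFGF/EGF, 6 lower in BMP4 against bFGF/EGF, and 7 higher in BMP4 against bFGF/BMP4. Over fits that each lacked 1 library, the counts ranged from 17 to 20 higher and 7 to 10 lower, 21 to 25 higher and 8 to 13 lower, and 10 to 13 higher and 4 lower, in the order of the comparisons. The low of 8 came without bFGF/EGF replicate 2 or BMP4 replicate 1.

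Uncalled differences changed sign as follows, and the cause was not tested. In bFGF/BMP4 against bFGF/EGF, quantile normalization gave 0.01 for Prdx2, -0.01 for Txnrd2 and -0.11 for Sod3, and limma-voom gave -0.08 for Txnrd2. With 1 library left out, Txnrd2 ranged there from -0.05 to 0.12 and Sod3 from -0.04 to 0.32, and Gpx1 ranged from -0.12 to 0.30 in BMP4 against bFGF/EGF. In BMP4 against bFGF/BMP4 the ranges were -0.21 to 0.04 for Gstm1, -0.20 to 0.48 for Gstm2, -0.10 to 0.28 for Gstk1, -0.34 to 0.00 for Mgst3, -0.06 to 0.34 for Gpx7, -0.28 to 0.13 for Prdx1, -0.17 to 0.06 for Txn2, -0.11 to 0.22 for Sod1 and -0.20 to 0.56 for Hmox1.

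Same-numbered libraries of different groups correlated at -0.084 to 0.125 in their deviations from the group means, and other pairs at -0.154 to 0.081. With 3 libraries per group, these values cannot settle whether same-numbered libraries shared an isolation. With the replicate block, 18 were higher and 10 lower, 24 higher and 12 lower, and 14 higher and 4 lower. Quantile normalization moved the median of all genes in BMP4 against bFGF/EGF from 0.10 to -0.035, and TPM, median-ratio scaling and limma-voom moved it by less than 0.1. Depth limits Gstt2, Gstm2 and Gstm6, which had few fragments in bFGF/EGF.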
